A study of Homo sapiens with 6 samples.

Results

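The genes described here are 10 cytokine genes of HT29 cells, a human colorectal adenocarcinoma line: IL32, the lymphotoxin genes LTA and LTB, TNF, IL1A, IL18, IL15, IL23A, LIF and CSF1. They were found by matching the Ensembl identifiers of the tables to these symbols in GENCODE release 44, and all 10 were present among the 60676 genes listed. The symbols were selected on measured values of these same libraries, among them the levels after histidine depletion and in untreated cells, so the members' own levels and fold changes are given as a description. No p-value is given for them, and how many passed the threshold is only counted beside the share of all genes.

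RNA was sequenced from 6 libraries, 2 for each of 3 conditions, each condition lasting 48 h. The untreated cells were kept in control medium, the Hdepl cells in medium depleted of histidine and the Wdepl cells in medium depleted of tryptophan. Histidine was left out of a medium of the RPMI type and tryptophan out of one of the DMEM F-12 type, each supplied with dialyzed serum. For the untreated cells that were sequenced, the sources used here name no medium type. The effect of an amino acid and that of a base medium therefore cannot be told apart in any comparison below. All 3 conditions used this single line with no genetic change, and no source states whether the replicates were separate cultures, so errors and p-values measure only the spread between these libraries.

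IL-32 is a cytokine with no close relatives that is made by epithelial and immune cells and is known to increase under inflammatory signals in the gut. Lymphotoxin alpha, lymphotoxin beta and TNF are ligands of the TNF superfamily: lymphotoxin alpha and TNF form homotrimers that bind TNF receptors, and heterotrimers of lymphotoxin alpha and beta bind the lymphotoxin beta receptor, a route into noncanonical NF-kB signalling. IL-1 alpha acts as an alarm signal released from damaged epithelium, IL-18 is an epithelial cytokine that caspases cut to its active form, and IL-15 supports natural killer and memory T cells. IL23A encodes the p19 subunit that pairs with the p40 subunit, the product of IL12B, to make IL-23. LIF signals through gp130, and CSF1 is the growth factor of macrophages.

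Promoter sequence was read for 6 of the 10 members from RefSeq on GRCh38.p14, namely IL32, LTA, LTB, TNF, IL1A and IL23A. The 250 bases before each annotated start were searched on both strands for the kB consensus, the binding sequence of NF-kB dimers. Genes of NF-kB are among those whose levels are described further on. A match was present before a start of IL32, LTA, LTB and IL23A, and 5.21% of the 35116 promoters in the table held one. Members were counted by gene with any of their windows allowed, whereas the shares here and below count single windows. The 4 matches are printed below in 30 bases of context, 5′ to 3′ on the strand of the gene, with the matched letters in capitals.

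IL32, chr16:3065294-3065323, plus strand: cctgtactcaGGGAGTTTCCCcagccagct

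LTA, chr6:31572176-31572205, plus strand: ctaagccctgGGGGCTTCCCcgggccccag

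LTB, chr6:31582492-31582521, minus strand: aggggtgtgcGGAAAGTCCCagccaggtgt

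IL23A, chr12:56338779-56338808, plus strand: gatgcagggaGGGGAATCCCacctgctgtg

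The capitals of IL32 span 11 bases because 2 matches on opposite strands overlap, and in IL23A the same 10 bases match on both strands. The matches lay 99 to 89 bases before the first RefSeq start of IL32, 103 to 94 before the second start of LTA, 87 to 78 before a start of LTB (a further LTB start lies 1 base away) and 95 to 86 before that of IL23A. In GENCODE the matches of IL32, LTA and LTB fell inside exons of longer annotated transcripts, whereas that of IL23A fell in no exon. These are letters found in a window, not binding that was measured.

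The windows of IL23A and TNF and 1 of the 2 windows of IL1A overlapped no annotated exon and are shown whole to set a promoter with a kB match beside those of a pair of cytokines without one, with kB matches and AP-1 sites (TGACTCA or TGAGTCA) in capitals.

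IL23A, chr12:56338634-56338883, plus strand: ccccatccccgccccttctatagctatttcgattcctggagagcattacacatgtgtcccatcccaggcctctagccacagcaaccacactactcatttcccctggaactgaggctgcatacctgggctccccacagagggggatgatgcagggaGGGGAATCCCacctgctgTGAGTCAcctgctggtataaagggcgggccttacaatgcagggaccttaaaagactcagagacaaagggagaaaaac

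TNF, chr6:31575315-31575564, plus strand: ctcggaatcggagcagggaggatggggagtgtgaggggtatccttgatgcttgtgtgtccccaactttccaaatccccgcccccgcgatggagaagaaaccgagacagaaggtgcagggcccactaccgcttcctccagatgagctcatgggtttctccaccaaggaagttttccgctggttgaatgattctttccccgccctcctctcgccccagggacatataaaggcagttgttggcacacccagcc

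IL1A, chr2:112784494-112784743, minus strand: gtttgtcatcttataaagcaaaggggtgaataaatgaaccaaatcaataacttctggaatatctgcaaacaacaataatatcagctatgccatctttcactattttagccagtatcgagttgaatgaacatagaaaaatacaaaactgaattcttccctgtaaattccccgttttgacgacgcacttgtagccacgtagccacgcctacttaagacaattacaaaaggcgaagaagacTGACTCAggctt

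An AP-1 site stood in the windows of IL23A and IL1A, with a further one in the IL1A window not shown, and in 4.20% of all promoters. The GAS element of STAT factors (TTCNNNGAA, which reads alike on both strands) was found before LTA and LTB and in 6.57% of all promoters. The CARE element bound by ATF4 (TGATGNAA) was found before none of the 6 members and in 3.14% of all promoters.

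The libraries held between 46390819 and 64388876 recovered reads. Levels are given below as normalized counts on a scale common to all 6 libraries. Log2 fold changes come from limma on log2(normalized count + 1), each with its standard error (SE), and those against untreated cells stay within the deposited table of that depletion. The threshold for a call was an adjusted p of 0.05 over all genes with a mean of at least 10. The median log2 fold change of all tested genes was 0.01 in Hdepl against untreated, 0.01 in Wdepl against untreated and 0.02 in Hdepl against Wdepl.

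After histidine depletion 9 of the 10 cytokine genes were called higher than in untreated cells and none lower, beside 39.1% and 38.2% of the 18288 tested genes called higher and lower. After tryptophan depletion 8 members could be tested, of which 3 were called higher (CSF1, IL15 and LIF) and 4 lower (LTB, IL23A, IL18 and IL32), beside 36.1% higher and 34.8% lower of 17960 genes. In Hdepl against Wdepl all 10 were called higher in Hdepl, beside 39.1% of 18276 genes called higher and 37.8% lower. Since the members were chosen by these contrasts, nothing is read from these counts. LTA and TNF passed the filter on low values in the comparisons with Hdepl only through their Hdepl libraries, and in Wdepl against untreated they did not pass it.

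**Figure D1:**
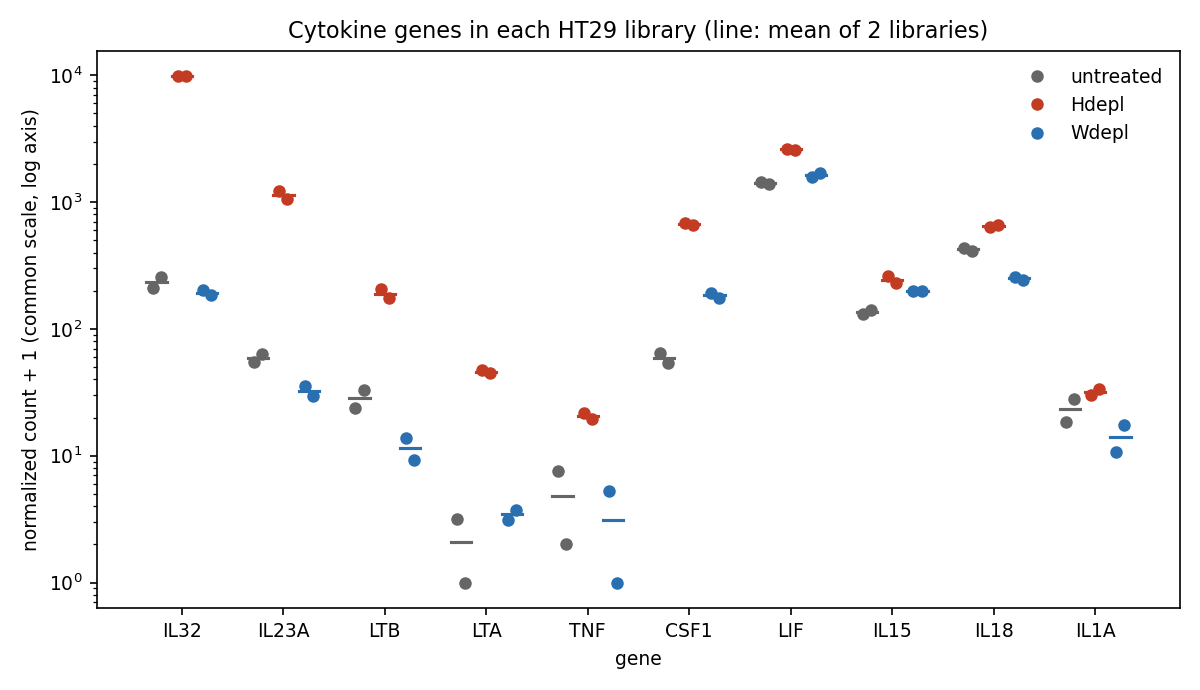
Normalized count + 1 of each cytokine gene on a log axis, with a point per library and a line at the mean of the 2 libraries of a condition. The Hdepl libraries lie above all others for every gene shown, and reach 9854 and 9817 in IL32.

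IL32 (chromosome 16, 3065297 to 3082192, plus strand) had normalized counts of 209 and 256 in the untreated libraries, 9854 and 9817 in Hdepl and 201 and 183 in Wdepl. Both Hdepl libraries stood far above the other 4, and both Wdepl libraries stood below both untreated ones by a small margin. The log2 fold change was 5.41 ± 0.07 (SE, n = 2 against 2) in Hdepl against untreated, which is 42.7-fold, and 5.67 ± 0.08 in Hdepl against Wdepl. Against untreated, the Wdepl value was −0.28 ± 0.12. This small difference was −0.13 without untreated replicate 2 and −0.22 without Wdepl replicate 2. Of its exonic bases, 4.02% are shared with other annotated genes on the same strand.

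LTA, TNF and LTB lie side by side on chromosome 6, LTA at 31572054 to 31574324, TNF at 31575565 to 31578336 and LTB, on the opposite strand, at 31580525 to 31582522. From the start of LTA to the end of LTB the cluster spans 10.5 kb. No annotated exon of another gene overlaps theirs.

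LTB, the membrane-bound partner of lymphotoxin alpha, had 22.95 and 31.8 normalized counts in untreated cells, 204 and 174 in Hdepl and 12.8 and 8.24 in Wdepl. The 3 conditions did not overlap, with Hdepl highest and Wdepl lowest. Its log2 fold change was 2.77 ± 0.20 in Hdepl and −1.32 ± 0.38 in Wdepl, each against untreated, and 4.07 ± 0.27 between the depletions.

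LTA was close to the limit of counting outside Hdepl. Its raw reads were 2 and 0 in untreated cells, 51 and 43 in Hdepl, and 2 and 3 in Wdepl, so only the Hdepl libraries held more than 3 reads, and no fold between Wdepl and untreated is given. Scaled by library size, the summed Hdepl reads were 43.2 times the untreated ones, with an exact 95% counting interval of 11.6 to 362, and 18.3 times the Wdepl ones (7.55 to 57.5). The reads of a condition were pooled for these intervals, which leave out the spread between libraries. They are no test, since LTA was selected on these values. The fitted log2 fold change of 4.69 ± 0.53 against untreated depends on the pseudocount and on the untreated library kept, at 2.55 with a pseudocount of 8, 5.52 without untreated replicate 1 and 3.86 without untreated replicate 2.

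TNF was low as well, with 6 and 1 raw reads in untreated cells, 23 and 18 in Hdepl and 4 and 0 in Wdepl. Its reads were below those of LTA in both libraries only in Hdepl. The untreated and Wdepl libraries overlapped, and both Hdepl libraries lay above them. The Hdepl reads were 5.38 times the untreated ones (exact 95% counting interval 2.39 to 14.2) and 9.95 times the Wdepl ones (3.60 to 38.3). The fitted log2 fold change of 2.41 ± 0.55 in Hdepl against untreated became 3.36 without untreated replicate 1, 1.45 without untreated replicate 2 and 1.27 with a pseudocount of 8. In Hdepl against Wdepl it was 3.16 ± 0.75, and 4.36 or 1.96 without Wdepl replicate 1 or 2. Like those of LTA, these intervals cover counting error only and leave out the spread between libraries. They are no test, since TNF was selected on these values. TNF did not exceed 20.8 normalized counts in any library.

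IL23A (chromosome 12, 56334174 to 56340410, plus strand) had 53.6 and 62.7 normalized counts in untreated cells, 1216 and 1053 in Hdepl, and 34.1 and 28.4 in Wdepl. Like LTB, it was highest in Hdepl and lowest in Wdepl with no overlap. The log2 fold changes were 4.27 ± 0.12 and −0.88 ± 0.25 in Hdepl and Wdepl against untreated, and 5.14 ± 0.15 between the depletions. IL12B, which encodes the other subunit of IL-23, had 0 reads in all 6 libraries, so transcripts of only 1 subunit of this heterodimer were detected at this depth. The receptor genes IL23R and IL12RB1 stayed at or under 3 reads in every library.

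CSF1 (chromosome 1, 109910242 to 109930992, plus strand) was higher after both depletions, with 63.4 and 52.7 normalized counts in untreated cells, 681 and 657 in Hdepl and 189.9 and 176 in Wdepl. The order Hdepl, Wdepl, untreated held with no overlap. Its log2 fold change was 3.52 ± 0.13 in Hdepl and 1.64 ± 0.17 in Wdepl, and the direct difference was 1.87 ± 0.12. Among the members it had the largest increase after tryptophan depletion.

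LIF (chromosome 22, 30240453 to 30246759, minus strand) was the member with most normalized counts in untreated cells, at 1441 and 1392, beside 2624 and 2576 in Hdepl and 1579 and 1707 in Wdepl. The conditions did not overlap. Its log2 fold change was 0.88 ± 0.06 in Hdepl and 0.21 ± 0.06 in Wdepl, and the Wdepl difference was 0.14 without Wdepl replicate 2. Antisense transcripts overlap 4.37% of its exonic bases.

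IL18 (chromosome 11, 112143253 to 112164096, minus strand) moved in opposite directions in the depletions. It had 433 and 411 normalized counts in untreated cells, 633 and 659 in Hdepl and 256 and 242 in Wdepl. The libraries of each condition lay close together and apart from the others. The log2 fold change was 0.62 ± 0.08 in Hdepl, −0.77 ± 0.10 in Wdepl and 1.37 ± 0.08 between them.

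IL15 (chromosome 4, 141636583 to 141733987, plus strand) was higher in both depletions, with 129 and 140.2 normalized counts in untreated cells, 258 and 229 in Hdepl and 199.5 and 199 in Wdepl. Its log2 fold change was 0.86 ± 0.13 in Hdepl and 0.56 ± 0.13 in Wdepl. Hdepl and Wdepl are neighbours in this order: their difference was 0.29 ± 0.12, and 0.20 without Hdepl replicate 1.

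IL1A (chromosome 2, 112773925 to 112784493, minus strand) was a low member in every condition. Its normalized counts were 17.5 and 26.9 in untreated cells, 28.9 and 32.6 in Hdepl and 9.60 and 16.5 in Wdepl. The conditions did not overlap, although single libraries of neighbouring conditions came within a few counts of each other. The log2 fold change was 0.49 ± 0.30 in Hdepl and −0.74 ± 0.38 in Wdepl, and both values moved with single libraries. The Hdepl value was 0.19 without untreated replicate 1 and 0.79 without untreated replicate 2. The Wdepl value was −1.04 and −0.45 without untreated replicate 1 and 2, and −0.38 and −1.11 without Wdepl replicate 1 and 2. The difference between Hdepl and Wdepl was 1.22 ± 0.34, and 0.86 without Wdepl replicate 1.

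**Figure D2:**
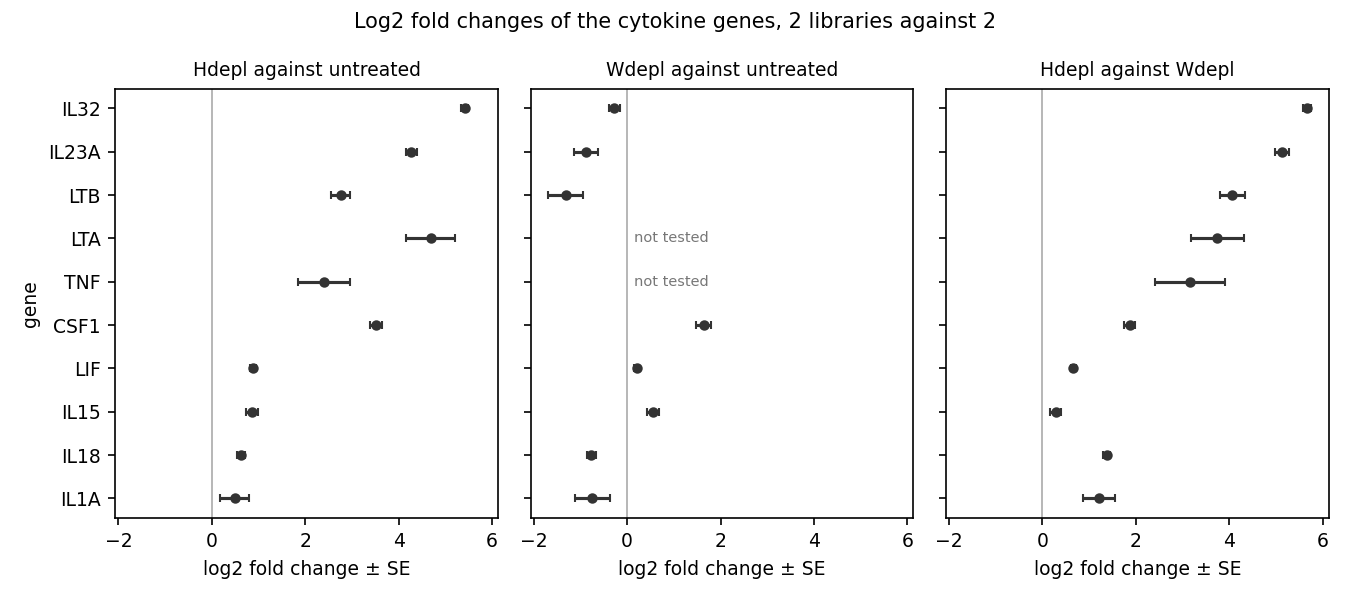
Log2 fold change of each cytokine gene with its SE in the 3 comparisons, 2 libraries against 2, with 0 marked by a line. In Hdepl against untreated the values run from 0.49 (IL1A) to 5.41 (IL32), and in Wdepl against untreated they lie on both sides of 0, with LTA and TNF not tested.

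To compare the genes with each other, normalized counts were divided by exonic length. In untreated cells LIF stood first at 366 ± 8.79 per kb (mean ± SD, n = 2), then IL18 at 162 ± 5.99, IL32 at 72.4 ± 10.3 and IL23A at 49.3 ± 5.46. LTB (17.8 ± 4.09) and IL15 (17.1 ± 1.01) did not differ beyond their spread, nor did CSF1 (11.1 ± 1.44) and IL1A (10.99 ± 3.28). TNF (2.25 ± 2.34) and LTA (0.629 ± 0.890) were lowest and also did not differ beyond their spread. In Hdepl the order was another: IL32 led with 3065 ± 8.31 per kb, followed by IL23A (963 ± 97.8), LIF (672 ± 8.67) and IL18 (248 ± 7.05). CSF1 (128 ± 3.23) and LTB (123 ± 13.9) came next within their spread, before IL15 (30.9 ± 2.65), LTA (25.9 ± 0.947), IL1A (15.2 ± 1.28) and TNF (11.6 ± 1.04). In Wdepl LIF (424 ± 23.3) and IL18 (95.6 ± 3.90) again headed the order, ahead of IL32 (59.8 ± 3.85) and CSF1 (34.9 ± 1.91). Exonic length counts every annotated exon of a gene, which is longer than a single transcript.

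The receptors and decoys of the members were examined next, as 19 genes, of which 4 had at most 3 reads in every library. In Hdepl 13 could be tested, with 8 higher and 5 lower than in untreated cells and a median log2 fold change of 0.51, beside 39.1% of all tested genes higher and 38.2% lower. In Wdepl 8 of 11 were higher and 1 was lower, with a median of 0.43, beside 36.1% and 34.8% of all tested genes. The medians of all genes, 0.01 in both comparisons, and these shares are the background of every list below. The list and the other lists below were chosen with these data known.

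LTBR, TNFRSF1A and TNFRSF14 fell in Hdepl and rose in Wdepl. LTBR, the lymphotoxin beta receptor, went from 9423 and 9871 normalized counts in untreated cells to 5928 and 6321 in Hdepl and 11791 and 11528 in Wdepl (log2 fold change −0.65 ± 0.05, limma adjusted p = 3.16e-11, and 0.27 ± 0.05, limma adjusted p = 1.86e-07). TNFRSF1A, the main TNF receptor of epithelial cells, changed by −0.63 ± 0.05 in Hdepl (limma adjusted p = 7.62e-11) and 0.43 ± 0.05 in Wdepl (limma adjusted p = 2.71e-15). TNFRSF14, which binds lymphotoxin alpha among other ligands, changed by −0.54 ± 0.07 and 0.41 ± 0.06 (limma adjusted p = 8.83e-08 and 4.16e-10). The second TNF receptor, TNFRSF1B, did not pass the filter and showed neither direction in Hdepl, with 6.56 and 3.98 normalized counts in untreated cells, 9.03 and 3.05 in Hdepl and 0 and 0.916 in Wdepl.

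IL6ST, which encodes the signalling chain gp130 used by LIF, rose from 4291 and 4640 normalized counts to 18037 and 16981 in Hdepl and to 7739 and 8141 in Wdepl (log2 fold change 1.98 ± 0.05, limma adjusted p = 3.37e-20 in Hdepl, and 0.82 ± 0.05 in Wdepl). LIFR, the other chain of the LIF receptor, stayed at or under 3 reads in every library. CSF1R, the receptor of CSF1, had 6.56 and 5.97 normalized counts in untreated cells, 35.2 and 41.7 in Hdepl and 6.40 and 9.16 in Wdepl. It passed the filter only through its Hdepl libraries, so no test is given for it, although it is among the 8 counted as higher.

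The IL-1 and IL-18 receptor genes moved in different directions. IL1R1, the signalling receptor of IL-1, was lower in Hdepl (log2 fold change −1.02 ± 0.33, limma adjusted p = 0.00831), a call lost without untreated replicate 2 (−0.74) and with DESeq2. Its decoy IL1R2 rose from 214 and 200 normalized counts to 759 and 634 in Hdepl and fell to 82.2 and 84.2 in Wdepl (1.75 ± 0.10, limma adjusted p = 6.18e-14, and −1.31 ± 0.15, limma adjusted p = 1.59e-14). IL1RAP, the shared accessory chain of these receptors, rose in Hdepl and Wdepl (1.44 ± 0.08 and 0.45 ± 0.09, limma adjusted p = 2.68e-14 and 1.46e-06). IL1RN, which encodes the secreted antagonist of IL-1, fell in Hdepl from 899.5 and 989.7 to 328 and 405 (−1.36 ± 0.09, limma adjusted p = 1.32e-12). IL18R1 rose in Hdepl and Wdepl (2.12 ± 0.18 and 1.32 ± 0.22, limma adjusted p = 1.71e-10 and 3.03e-08), and so did IL18BP, the soluble inhibitor of IL-18 (0.51 ± 0.09 and 0.49 ± 0.08, limma adjusted p = 1.05e-05 and 1.97e-08). IL18RAP, a further IL-18 receptor gene of the list, stayed at or under 3 reads in every library. IL15RA, which presents IL-15 at the cell surface, rose most in Wdepl, from 279.8 and 274 to 629.6 and 650.1 (1.2 ± 0.09), and by 0.27 ± 0.10 in Hdepl (limma adjusted p = 0.017), a call lost without untreated replicate 2 (0.26), without Hdepl replicate 2 (0.23) and with DESeq2.

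Of 17 genes for the processing and release of the members, 13 could be tested. In Hdepl 8 rose and 4 fell with a median log2 fold change of 0.27, beside 39.1% and 38.2% of all genes, and in Wdepl 9 rose and 3 fell with a median of 0.52, beside 36.1% and 34.8%. CASP1, the usual protease of pro-IL-18, had at most 4 raw reads in any library, whereas CASP4, which can also cut IL-18, rose in Hdepl and Wdepl (0.38 ± 0.05 and 0.54 ± 0.05, limma adjusted p = 3.11e-07 and 1.18e-20). GSDMD, the pore through which IL-1 family cytokines leave a cell, fell from 2786 and 2973 normalized counts to 1613 and 1644 in Hdepl and 1493 and 1475 in Wdepl (−0.81 ± 0.06, limma adjusted p = 2.38e-12, and −0.96 ± 0.05). PYCARD, the inflammasome adaptor, fell as well (−1.58 ± 0.12 and −1.68 ± 0.11, limma adjusted p = 9.57e-12 in Hdepl), but an antisense gene overlaps 59.7% of its exonic bases. CAPN2, a calpain subunit (calpains process pro-IL-1 alpha), rose in Hdepl by 0.68 ± 0.05 and in Wdepl by 0.56 ± 0.05 (limma adjusted p = 9.61e-12 and 2.57e-21). The other calpain of the list, CAPN1, fell in both (−0.39 ± 0.05 and −0.16 ± 0.05, limma adjusted p = 6.39e-07 and 0.00336), the Wdepl call being lost without Wdepl replicate 1 (−0.18) or 2 (−0.13). CAST, which encodes the calpain inhibitor, rose in both (0.67 ± 0.05 and 0.54 ± 0.05, limma adjusted p = 5.85e-11 and 5.59e-21). RHBDF2, a partner of ADAM17, rose in Hdepl and Wdepl (0.56 ± 0.06 and 0.52 ± 0.05, limma adjusted p = 4.87e-09 and 1.16e-16). ADAM17, the sheddase of TNF, rose in Wdepl by 0.86 ± 0.05, while its value of 0.13 ± 0.05 in Hdepl (limma adjusted p = 0.0373) was not called with DESeq2, without the filter, or without untreated replicate 1 (0.12), Hdepl replicate 1 (0.10) or Hdepl replicate 2 (0.16).

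Other ligands of the TNF superfamily numbered 15, of which 7 were tested. In Hdepl 3 rose and 2 fell, beside 39.1% and 38.2% of all genes. The median log2 fold change of 0.92 there is the value of TNFSF8 itself, which was not called and passed the filter only through its Hdepl libraries, so nothing is read from it. In Wdepl 5 rose and 2 fell with a median of 0.82, beside 36.1% and 34.8%. Of the 5, TNFSF8 passed the filter in that comparison only through its Wdepl libraries. TNFSF15, which encodes the gut-associated ligand TL1A, was the most abundant and rose from 2653 and 2562 normalized counts to 9086 and 8694 in Hdepl and 6323 and 6589 in Wdepl (1.78 ± 0.05, limma adjusted p = 9.42e-20, and 1.30 ± 0.05). TNFSF10, which encodes the death ligand TRAIL, had 369 and 337 in untreated cells and moved in opposite directions, falling to 202 and 244 in Hdepl and rising to 511 and 520.1 in Wdepl (−0.66 ± 0.11 and 0.54 ± 0.09, limma adjusted p = 1.11e-05 and 2.51e-08).

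Among 55 other interleukins and growth factors, 33 had at most 3 reads in every library and 11 were tested in Hdepl. Of these 6 rose and 3 fell in Hdepl with a median log2 fold change of 0.39, beside 39.1% and 38.2% of all genes, and in Wdepl 3 of 9 rose and 3 fell with a median of 0.23, beside 36.1% and 34.8%. With a mean of at least 50 required, 5 were called in Hdepl. CSF2, the granulocyte-macrophage growth factor, had 1.09 and 3.98 normalized counts in untreated cells, 38.9 and 40.7 in Hdepl and 9.60 and 7.33 in Wdepl. It too passed the filter only through its Hdepl libraries and is given without a test, and IL16 of the same list, counted above, passed in the same way. IL36RN, which encodes an antagonist of the IL-36 receptor, had 28.4 and 40.8 normalized counts in untreated cells, 192 and 191 in Hdepl and 3.20 and 10.99 in Wdepl. It rose in Hdepl (2.47 ± 0.19, limma adjusted p = 2.23e-11), and no test is given in Wdepl, where it passed the filter only through its untreated libraries. IL34, which like CSF1 is a ligand of CSF1R, showed another pattern, with 60.1 and 50.7 in untreated cells, 32.5 and 37.6 in Hdepl and 346 and 324 in Wdepl (2.57 ± 0.15 in Wdepl). Its fall of 0.63 ± 0.24 on the log2 scale in Hdepl (limma adjusted p = 0.0178) was lost with DESeq2 and without untreated replicate 1 or Hdepl replicate 1. IL11, a relative of LIF, rose in Hdepl (1.42 ± 0.28, limma adjusted p = 6.83e-05), and KITLG, the mast cell growth factor, fell in Hdepl and Wdepl (−0.72 ± 0.05, limma adjusted p = 2.53e-12 in Hdepl, and −1.91 ± 0.05 in Wdepl). CLCF1, another gp130 ligand, rose in Hdepl and Wdepl (0.39 ± 0.06 and 0.73 ± 0.06, limma adjusted p = 7.61e-06 in Hdepl). IL33 had 10.9 and 16.9 normalized counts in untreated cells, 0 and 3.05 in Hdepl and 3.20 and 2.75 in Wdepl, and like IL1B and TSLP it did not pass the filter. IL6 and CSF3 stayed at or under 1 read. MIF is listed at 0 or 1 read, and since 48.9% of its exonic bases are shared with other genes on the same strand, its count is uncertain.

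Genes of NF-kB, the transcription factor family downstream of TNF and lymphotoxin receptors, were higher in Hdepl with a single exception. Of 21 subunits and regulators 20 rose, none fell and IKBKB did not pass (log2 fold change 0.12 ± 0.06, limma adjusted p = 0.0664), with a median of 1.32, beside 39.1% of all genes higher and 38.2% lower. The exception depended on the setting. With DESeq2 19 rose, beside 6330 of 18288 genes, and in a fit on all 6 libraries 21 rose, beside 7139 of 18300. In Wdepl 11 rose and 5 fell with a median of 0.18, beside 36.1% and 34.8%. BIRC3, an inhibitor of noncanonical signalling, had 316 and 377 normalized counts in untreated cells, 9841 and 9513 in Hdepl and 402 and 385 in Wdepl (4.81 ± 0.07 in Hdepl, limma adjusted p = 2.42e-25). TNFAIP3, which encodes the feedback inhibitor A20, went from 175 and 154 to 3913 and 3519 in Hdepl and to 86.4 and 89.7 in Wdepl (4.50 ± 0.08 and −0.90 ± 0.15, limma adjusted p = 1.19e-23 and 1.07e-07). TRAF1, an adaptor of TNF receptors, rose by 4.36 ± 0.09 in Hdepl and by 1.06 ± 0.14 in Wdepl (limma adjusted p = 2.91e-22 and 4.35e-11). RELB and NFKB2, which make up the noncanonical dimer, rose by 2.76 ± 0.06 and 2.29 ± 0.06 in Hdepl (limma adjusted p = 2.55e-21 and 4.73e-20), and NFKBIA, which encodes the inhibitor IkB alpha, by 1.32 ± 0.06 (limma adjusted p = 1.29e-16). In Wdepl NFKB2 rose by 0.18 ± 0.06 (limma adjusted p = 0.00242), a call lost with DESeq2, without the filter and without untreated replicate 1 (0.06) or Wdepl replicate 1 (0.12).

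The genomic neighbours of IL32 and of the LTA, TNF and LTB cluster were examined to see whether adjacent genes moved with them. Next to IL32, MMP25 (a membrane-bound metalloprotease gene), 4.57 kb before it, rose in Hdepl from 21.9 and 15.9 normalized counts to 121 and 136 (2.73 ± 0.23, limma adjusted p = 1.00e-10) and in Wdepl to 35.2 and 38.5 (0.94 ± 0.31, limma adjusted p = 0.0048, lost with DESeq2 and at 0.87 without Wdepl replicate 2). THOC6, 37.5 kb before IL32, rose by 0.61 ± 0.06 in Hdepl (limma adjusted p = 1.47e-09) and fell by 0.70 ± 0.06 on the log2 scale in Wdepl (limma adjusted p = 9.42e-21). BICDL2, 28.4 kb before it, was not called in Hdepl and rose by 0.47 ± 0.06 in Wdepl (limma adjusted p = 1.77e-12). After IL32, ZNF205 at 30.4 kb fell by 0.82 ± 0.12 on the log2 scale in Hdepl (limma adjusted p = 1.78e-06) and was not called in Wdepl, and ZNF213 at 47.6 kb rose in both (0.36 ± 0.07 and 0.61 ± 0.06, limma adjusted p = 5.06e-05 and 2.85e-17). ZSCAN10, the nearest gene after IL32, was at or under 3 reads in every library. Around the cluster of LTA, TNF and LTB, NFKBIL1, 13.2 kb before it, and ATP6V1G2, 23.6 kb before it, were tested and not called in any of the 3 comparisons. On the other side LST1, 3.60 kb away, had between 0.995 and 13.2 normalized counts and did not pass the filter, and NCR3 and AIF1 stayed at or under 3 reads.

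The genes whose pattern was most like that of a member were sought among 13246 other genes with a mean of at least 100 in their highest condition, by the distance between pairs of log2 fold changes (Hdepl and Wdepl against untreated) on the common scale of the 6 libraries. This is a description, since both values of a gene rest on the same untreated libraries. Nearest to IL32 were HSPA6, an inducible heat shock gene (distance 0.363), GLIPR1 (0.482) and the noncoding LINC00944 (0.538). HSPA6 had 19.7 and 19.9 normalized counts in untreated cells, 1116 and 1132 in Hdepl and 19.2 and 15.6 in Wdepl. Nearest to IL23A were TNFAIP3 (0.226), PTGER4, a prostaglandin E2 receptor gene (0.395), and DUSP10, a phosphatase of stress kinases (0.579). Near LTB were the noncoding ENSG00000253307 (0.111) and CPM (0.174). CSF1 was nearest to HCLS1 (0.102), SQSTM1, the autophagy receptor gene (0.157), and H2BC21, a histone gene (0.160). The smaller changes of IL18, IL15 and LIF had close neighbours by this measure, at distances of 0.00521 to 0.0419, with ARMT1, SNAP29 and ZC3HAV1 the nearest to each.

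The coding sequences of the members were compared with those of 19122 genes for their content of the depleted amino acids, which the choice of members did not use. Histidine codons made up a median of 2.44% of a gene's codons and tryptophan codons a median of 1.13%. IL32 had 5 histidine codons among 234 (2.14%) and 8 tryptophan codons (3.42%), a tryptophan share above that of 97.5% of genes. LTA was rich in histidine, with 11 of 205 codons (5.37%, above 96.3% of genes), as were IL15 (4.32%), IL23A (4.23%) and LIF (3.96%). LTB (2 of 244, 0.820%) and IL18 (1 of 193, 0.518%) were poor in it, and IL18 had no tryptophan codon. TNF (1.72%), CSF1 (1.99%) and IL1A (2.21%) lay below the median for histidine.

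Markers of the labelled cell type and of cells that usually make these cytokines were read in the same libraries. The 12 colon epithelium markers summed to 448992 to 476992 normalized counts in untreated cells, 583477 to 616635 in Hdepl and 631972 to 635933 in Wdepl, and the largest part was KRT8, a keratin gene, at 186625 and 201539 in untreated cells and 320941 and 340439 in Hdepl. Both Hdepl libraries lay above both untreated ones for KRT8, KRT19, KRT20, CDH1 and EPCAM. KRT20 had 10264 and 10759 normalized counts in untreated cells and 34599 and 35062.5 in Hdepl. Both Hdepl libraries lay below both untreated ones for KRT18, LGALS4, VIL1, CDH17, GPA33 and the intestinal transcription factors CDX1 and CDX2. Among these, LGALS4 had 54148 and 56465 in untreated cells and 17513 and 19660 in Hdepl, CDX2 had 469 and 457 against 182 and 172, GPA33 had 78.7 and 75.6 against 2.71 and 10.2, and CDX1 was at 0 in Hdepl. The 15 lymphocyte markers summed to 122 to 129, 82.4 to 83.1 and 107 to 121, with CD2, CD3D and MS4A1 at 0 in all libraries and 10, 11 and 12 of the 15 at or under 3 reads. The 13 markers of macrophages, monocytes and mast cells summed to 181 to 210, 222 to 230 and 395 to 396, with 9, 7 and 9 at or under 3 reads and TYROBP, KIT, TPSAB1 and CPA3 at 0 in all. The list includes CSF1R, given above. Within it CD163 had no reads in untreated cells and 8.13 and 11.2 normalized counts in Hdepl. SPI1 went from 0 and 0.995 to 15.4 and 8.14. CD14 fell in Hdepl, from 104 and 119 to 50.6 and 63.1, and had 380 and 367 in Wdepl, most of the sum there. ITGAM had 65.6 and 76.6 in untreated cells, 103 and 96.7 in Hdepl and 4.27 and 10.99 in Wdepl. The 9 markers of fibroblasts and endothelium summed to 116 to 132, 85.8 to 93.6 and 88.6 to 98.0. Of these, the endothelial gene VWF had 7.65 and 3.98 in untreated cells, 42.5 and 40.7 in Hdepl and 8.54 and 8.24 in Wdepl. PECAM1 went the other way in Hdepl, with 48.1 and 36.8 in untreated cells and 8.13 and 9.16 in Hdepl. COL1A1 was lower in Hdepl too, at 27.1 and 35.6 beside 66.7 and 69.6 in untreated cells. The part of such genes in the members' values was not tested. In bulk RNA, fewer cells that make a cytokine and less RNA per cell cannot be told apart.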

How the data were processed

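RNA-seq of HT29 cells, with 2 libraries per condition, was used. The authors used STAR 2.7.10a for alignment, HTSeq 2.0.5 with gencode 38 for counting and DESeq2 for normalization. The deposited signal is normalized counts per gene, in a separate table for each depletion that repeats the untreated libraries. How strand, molecular identifiers and multiply mapped reads were treated is not given in the sources used here.

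Each value divided by the smallest step of its library gave whole reads for 100% of values (tolerance 0.01). Reads were scaled together by the median of ratios for levels and for Hdepl against Wdepl. In GENCODE 44, 60357 of 60676 identifiers were found. limma 3.58.1 in R 4.3.3 (two-sided, trend) was run on log2(normalized count + 1), keeping genes whose mean reached 10, Benjamini-Hochberg adjusted at 0.05 over all genes. On the recovered reads edgeR 4.0.16 called 7169 genes higher and 7111 lower in Hdepl, 6490 and 6349 in Wdepl, and 7090 and 7243 in Hdepl against Wdepl. DESeq2 1.42.0 called 6330 and 6154, 5423 and 5354, and 6479 and 6261. A fold change with a pseudocount understates that of low genes.

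The members, lists, motifs and rules were chosen with earlier results of these data known. The genes named were all members, a fixed set of receptors, proteases, cytokines and NF-kB genes, up to 3 per list with the largest called change and a mean of at least 100, 3 neighbours on each side and the 3 nearest patterns. Some genes that met the rule, 1 nearest pattern among them, are not reported here. Others named, among them IKBKB, CD163, SPI1, VWF, CDX1, CDX2, LGALS4, GPA33, KRT8, CAST, IL16, TNFSF8, IL23R, IL12RB1 and MIF, were chosen after their values were seen. The settings varied were the pseudocount (0.5 and 8), the filter (none, or a mean reaching 50), edgeR, DESeq2, other sets of libraries in the fit, a replicate block, a limit on the fold change and each library left out. The code was tested on simulated data. Tables and figures were made in Python 3.11.15 (numpy 2.4.6, matplotlib 3.10.9, pandas 2.3.3).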

Additional observations from a re-analysis of the deposited data

How the results depend on the processing

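Each condition has only 2 libraries, so a fit without 1 of them assumes that the lone library varies like the other groups. Over 28 log2 fold changes and 353 alternative values, none reversed the direction of a member. Every alternative used these same libraries, on which the members were selected, so a kept direction is no independent support. In some settings a pass of the threshold was lost (IL32 and LIF in Wdepl against untreated, IL1A and IL15 in Hdepl against Wdepl). In others a pass was gained (IL1A against untreated). For the fixed genes, the largest of each list and the neighbours, 31 of 1474 alternative values lost a call. Genes named after their values were seen, such as IKBKB, CAST, TNFSF8 and IL16, were not in this tally. With a log2 fold change of 1 or more in size also required, the calls over all genes fell to 5949 in Hdepl against untreated, 3674 in Wdepl against untreated and 5851 in Hdepl against Wdepl, and the members called in Wdepl against untreated to 2. The list of receptors then had 8, 3 and 7 calls in these comparisons, the list of processing and release 1, 1 and 0, the other TNF ligands 2, 3 and 1, the other cytokines 4 and 3 in the depletions against untreated, and the NF-kB list 12 and 2. With a mean of at least 50, the other cytokines had 5 calls in Hdepl against untreated. Without Hdepl replicate 2 or Wdepl replicate 2, the processing list had 7 calls in Hdepl against Wdepl, and 7 to 11 over all libraries left out. TNF could not be fitted against either group without Hdepl replicate 1 or 2, since it then missed the filter, and LTA and TNF have no fitted value in Wdepl against untreated. With the replicate block, 14432, 12766 and 14133 genes were called in Hdepl against untreated, Wdepl against untreated and Hdepl against Wdepl. The numbers are not known to pair the samples: same-numbered libraries deviated together at correlations of 0.12, −0.05 and −0.10. With the numbers crossed, an alternative chosen after seeing the data, 14246 genes were called in Hdepl against Wdepl.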
